A study of Mus musculus with 10 samples.

Results

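SMAD3 binding in TGF-β-treated primary mouse cardiac fibroblasts was compared between cells that received an siRNA against hexokinase 1 (siHK1) and cells without it (TGF). CUT&Tag-seq was used, in which an antibody guides a transposase that inserts sequencing adapters into nearby DNA. Each condition was represented by 1 SMAD3 library among the 10 libraries of the series. The members are genes: raw reads were summed over the regions that the authors assigned to each symbol, and genes with at least 20 reads over both libraries were kept, which left 8062 of 16630 genes with a listed SMAD3 region.

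Both libraries came from fibroblasts of mouse heart and both were exposed to TGF-β, so no untreated SMAD3 library serves as a background here. The labels give neither the age nor the strain of the mice and do not say whether cells of several hearts were pooled. No RNA or protein was measured in these tables, so the depletion of HK1 could not be checked. Whether the TGF cells received a control siRNA is not given in the sources used here, so siRNA transfection and the loss of HK1 cannot be told apart. With 1 library on each side no difference was tested: every statement below compares 2 libraries, not 2 conditions, and the intervals given are exact 95% intervals of counting error only, because PCR copies without molecular identifiers are not independent molecules.

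SMAD3 is the transcription factor through which TGF-β receptors act on genes. The receptors phosphorylate it, it pairs with SMAD4 and enters the nucleus, and there it binds short DNA elements, often beside AP-1 factors such as c-JUN. In activated cardiac fibroblasts it is known for driving collagen and other matrix genes, and it also turns on inhibitors that end its own signal, such as Smad7 and Skil. HK1 carries out the first step of glycolysis, the pathway that yields lactate, and the study asked whether loss of HK1 alters the binding of SMAD3 and other factors to chromatin. From normalized peak intensity, the study reported weaker binding of c-JUN, SMAD3 and NFATC2 after HK1 knockdown. Ratios below are scaled so that both libraries have equal totals, and cannot show a change common to all regions.

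The SMAD3 table listed 58633 regions covering 19.086 Mb, with 563562 TGF reads and 399897 siHK1 reads on them, or 29.5 and 20.95 reads for each kb. These totals cover listed regions only and are not library depths. Ratios were therefore taken after scaling the libraries to equal totals, which multiplies siHK1 by 1.41 and adds 0.49 to every log2 ratio of siHK1 over TGF. Kept genes had a median of 43 reads over 4 regions, so most single genes have wide intervals. The 100 regions with most reads held 38.8% of the TGF reads and 36.1% of the siHK1 reads, and 89 of them overlapped one of the 100 most read NFATC2 regions and 52 one of the 100 most read JUN regions. Peaks were called by the authors in each library separately: 27665 regions had a peak in TGF only, 27953 in siHK1 only and 2917 (4.98%) in both. Calling and ratio are not independent: 91.7% of regions called in TGF only had a log2 ratio below 0 and 94.2% of those called in siHK1 only had one above 0, so values over regions called in both are also given.

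The median gene had a log2 ratio of 0.15, with quartiles of -0.46 and 0.76. At least 2-fold more SMAD3 reads in siHK1 were found at 1372 of 8062 genes (17.0%), and at least 2-fold fewer at 777 (9.64%). After scaling, 4517 genes (56.0%) lay above 0. Raw reads were more numerous in siHK1 at 2728 genes (33.8%). The split between higher and lower genes rests on the scaling: it was 461 against 1891 with none, 1040 against 1008 with TMM factors from edgeR, which assume that most genes do not differ, and 864 against 1316 with the log2 values deposited by the authors. The same scaling placed the median at -0.01 for JUN, 0.08 for NFATC2 and -0.06 for H3K9lc, the lactylated form of histone H3 lysine 9, in the siHK1 and TGF libraries of those antibodies. Near the limit of 20 reads, genes with 18 reads had a median of 0.19 (294 genes), those with 19 reads 0.35 (278 genes), those with 20 reads 0.22 (267 genes) and those with 21 reads 0.36 (265 genes). With the limit set instead on the mean of both libraries after scaling, 1442 genes were at least 2-fold higher and 694 at least 2-fold lower.

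**Figure D1:**
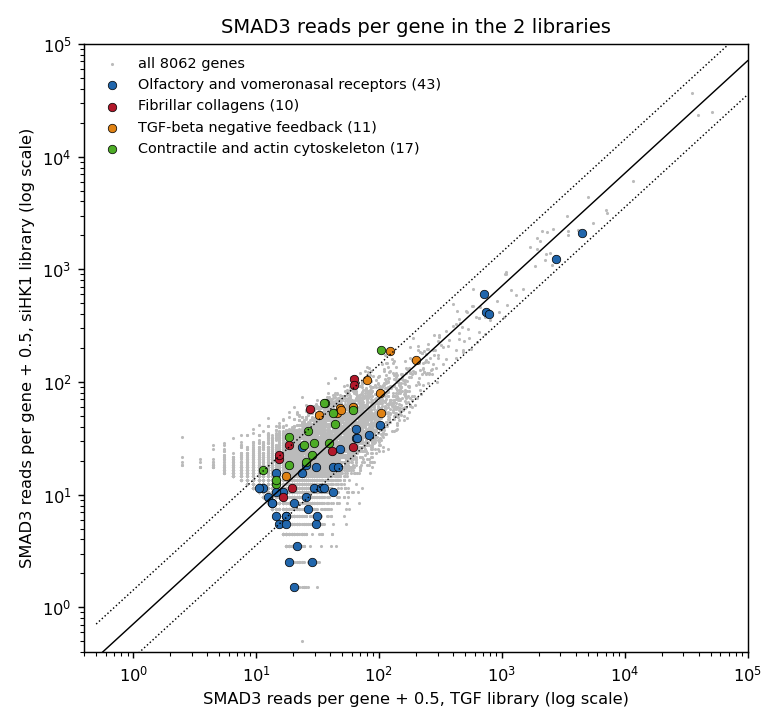
SMAD3 reads per gene plus 0.5 in the TGF library (x axis) and the siHK1 library (y axis), both on log scales, for the 8062 kept genes, with 4 gene lists in colour. The solid line marks equal scaled reads and the dotted lines 2-fold differences: 5 of 10 fibrillar collagens lie at or above the upper dotted line (2 with TMM scaling) and none of the 43 olfactory and vomeronasal receptors does.

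Position in the genome separated the ratios. Regions that overlap an annotated start site held 20944 reads in TGF and 27849 in siHK1, a pooled log2 ratio of 0.91. The ratio was 0.50 up to 1 kb from a start site, 0.08 from 1 to 3 kb and 0.02 from 3 to 10 kb. Beyond that it was 0.11 up to 30 kb, -0.19 up to 100 kb, -0.30 up to 300 kb and -0.35 farther away. Before scaling, the log2 ratio over start sites was 0.41 and that up to 1 kb was 0.00, and the other 6 bins lay below 0. Over the same 8 bins the JUN ratio stayed between -0.03 and 0.16, the NFATC2 ratio between -0.09 and 0.09, and the H3K9lc ratio between -0.13 and 0.04. Medians over single regions, which give each region the same weight, ran from 1.05 over start sites to -0.88 beyond 300 kb for SMAD3. NFATC2 medians also varied with position, in another order, from 0.05 over start sites to 0.70 between 1 and 30 kb and 0.21 beyond 300 kb.

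Without the 100 regions with most reads the SMAD3 ratio went from 0.93 over start sites to -0.66 beyond 300 kb. In regions with a peak in both libraries it was 0.57 over start sites, 0.00 up to 1 kb, 0.14 from 10 to 30 kb and between -0.30 and -0.20 in the other 5 bins. Promoter regions with at least 10 reads (4421) had a median of 0.84 and distal intergenic regions (6028) a median of -0.29. With a peak in both libraries these medians were 0.49 (811 promoter regions) and -0.13 (1065 distal regions), while the pooled ratios, which weigh regions by their reads, were 0.07 and -0.11.

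**Figure D2:**
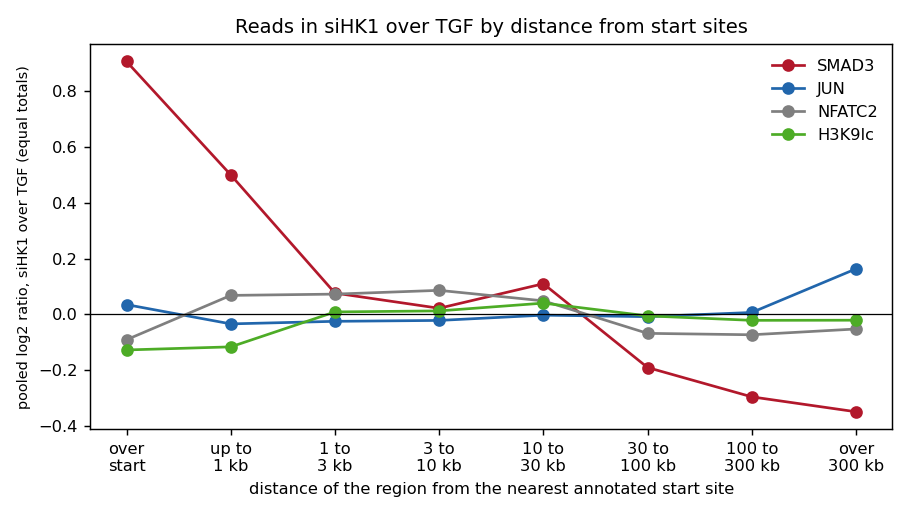
Pooled log2 ratio of siHK1 over TGF reads, scaled to equal totals (y axis), for regions grouped by distance from the nearest annotated start site (x axis), with a line for each antibody and 1 library per condition. The SMAD3 line runs from 0.91 over start sites to -0.35 beyond 300 kb, and the JUN line from 0.03 to 0.16.

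Genes followed their regions. The 4731 genes with no SMAD3 reads within 1 kb of a start site had a median log2 ratio of -0.15, with 10.7% at least 2-fold higher and 13.9% at least 2-fold lower. The 799 genes with over 75% of their reads there had a median of 0.86, with 40.6% higher and 1.25% lower. Between these ends the medians were 0.22, 0.49 and 0.67 as the share of reads near the start grew. Since a gene's ratio moved with the position of its reads, values over regions beyond 3 kb are also given below for the main gene lists.

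Overlap with JUN regions went with a higher SMAD3 ratio at every distance. Within 1 kb of a start site the pooled ratio was 0.82 in 3952 regions that overlap a listed JUN region and 0.27 in 2779 that do not. From 1 to 30 kb it was 0.22 against -0.17. Beyond 30 kb it was -0.11 against -0.53, while the median over single regions there was 0.78 against -0.73.

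The sequence under the regions differed in the same direction. The central 200 bp of each region was searched on both strands for CAGAC, the short SMAD element, for GTCTAGAC, the palindrome bound by SMAD3, and for TGANTCA, the AP-1 site. GTCTAGAC was the rarest: 122 of 58633 listed regions held it (0.21%), and 50 of 16872 regions with at least 10 reads (0.30%). These 50 regions had a median log2 ratio of 1.31, 46 of them lay above 0, 36 were at least 2-fold higher and none was at least 2-fold lower. Over all 16872 regions the median was 0.11, with 52.7% above 0, 4750 (28.2%) at least 2-fold higher and 3372 at least 2-fold lower. Only 7 of the GTCTAGAC regions were called in both libraries, with 2015 reads in TGF and 1979 in siHK1, a median of 0.48 and 5 above 0. Of all regions with at least 10 reads that were at least 2-fold lower, 0 of 3372 held GTCTAGAC, against 36 of 4750 that were at least 2-fold higher (0.76%). GTCTAGAC itself contains neither CAGAC nor its reverse complement GTCTG, so a match to it is not by itself a match to the short element.

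GTCTAGAC regions with at least 10 reads at 4 genes of the lists below are shown, because they carry the rarest motif at TGF-β, matrix and cytokine genes. Each line gives the central 200 bases of the region on the plus strand of GRCm38, with CAGAC, GTCTAGAC and TGANTCA matches on either strand in capitals.
Pmepa1, intron, chr2:173258025-173258224: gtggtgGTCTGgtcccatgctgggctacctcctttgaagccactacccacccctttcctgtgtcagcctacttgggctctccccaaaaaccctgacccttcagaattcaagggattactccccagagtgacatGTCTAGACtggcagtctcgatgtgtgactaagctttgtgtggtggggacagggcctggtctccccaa
Col5a1, intron, chr2:27899772-27899971: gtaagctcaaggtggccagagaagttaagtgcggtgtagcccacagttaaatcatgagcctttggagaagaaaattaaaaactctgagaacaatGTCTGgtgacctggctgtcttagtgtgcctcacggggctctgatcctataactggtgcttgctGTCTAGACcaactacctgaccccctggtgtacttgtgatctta
Csf1, distal intergenic, chr3:107776516-107776715: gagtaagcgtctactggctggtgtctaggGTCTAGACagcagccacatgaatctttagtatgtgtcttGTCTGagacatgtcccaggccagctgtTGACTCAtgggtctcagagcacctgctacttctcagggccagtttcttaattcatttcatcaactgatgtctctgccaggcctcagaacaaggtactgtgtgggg
Ltbp1, distal intergenic, chr17:74981490-74981689: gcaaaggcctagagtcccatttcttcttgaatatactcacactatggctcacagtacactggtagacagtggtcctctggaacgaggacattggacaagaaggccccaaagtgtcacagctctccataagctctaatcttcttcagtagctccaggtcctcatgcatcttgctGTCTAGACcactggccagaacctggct
At Pmepa1, 22 reads in TGF stood against 38 in siHK1, a log2 ratio of 1.27 (0.49 to 2.11). The Csf1 region, 15921 bp from the start site and with an AP-1 match as well, held 10 and 16 (1.15, -0.06 to 2.47). At Col5a1 the counts were 3 and 7 (1.59, -0.41 to 4.30), and at Ltbp1 they were 4 and 6 (1.03, -0.996 to 3.35). All 4 had more reads in siHK1, and only the interval at Pmepa1 leaves out 0.

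AP-1 sites and the short SMAD element showed smaller differences in the same direction. TGANTCA lay in 6.70% of listed regions. Among regions with at least 10 reads it lay in 7.36%, and it was in 11.7% of the regions at least 2-fold higher and in 3.53% of those at least 2-fold lower. CAGAC lay in 38.2% of listed regions, in 38.1% of those with at least 10 reads, in 45.2% of the higher and in 35.2% of the lower ones. Beyond 3 kb of a start site the median ratio was 0.83 over 972 regions with TGANTCA, 0.10 over 4668 with CAGAC and -0.34 over 7221 with none of the 3 motifs. In the part of these regions that was at most 50% repeat, the medians were 0.89, 0.70 and 0.01, so the regions with none were no longer below 0 there. Within 1 kb of a start site the motifs separated less, with medians of 1.03 for TGANTCA and for CAGAC and 0.95 with none. In regions called in both libraries, the median was 0.62 with TGANTCA (139 of 164 above 0) and -0.01 with none (918 of 1856 above 0). GGCGC, which regions with none of the 3 motifs can hold, lay in 11.3% of regions with at least 10 reads. It was in 19.9% of the higher and 3.53% of the lower ones, a wider gap than for TGANTCA. Its median was 0.99 over 1900 regions and 0.49 over 510 beyond 3 kb. Within 1 kb of a start site 41.0% of regions held it, and beyond 3 kb 4.10%.

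In the JUN libraries the palindrome went the other way. There 273 regions with at least 10 reads held GTCTAGAC, with a median of -0.47 and 60 of them above 0, while 21130 regions with TGANTCA had a median of -0.03. NFATC2 had a median of 0.12 over 32 regions with GTCTAGAC, 19 of them above 0, against -0.22 over 7206 with none of the 3 motifs, which is the direction seen for SMAD3. The H3K9lc medians were -0.03 over 84 regions with GTCTAGAC and -0.13 over 4065 with TGANTCA. These medians belong to other pairs of libraries, and their difference from SMAD3 was not tested.

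**Figure D3:**
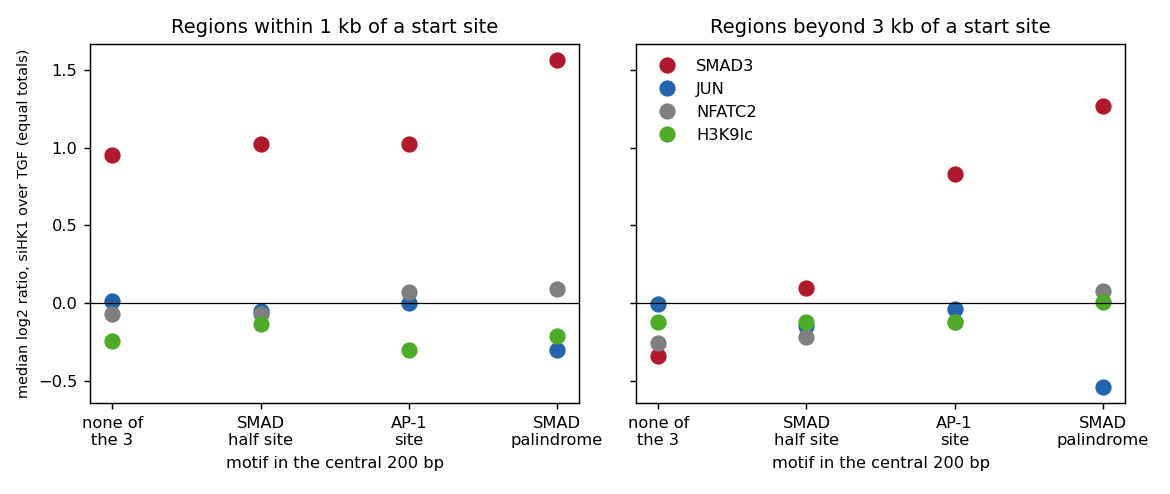
Median log2 ratio of siHK1 over TGF (y axis) for regions with at least 10 reads, grouped by the motif in the central 200 bp (x axis), within 1 kb of a start site (left) and beyond 3 kb (right), with a point for each antibody. Beyond 3 kb the SMAD3 medians run from -0.34 with none of CAGAC, GTCTAGAC and TGANTCA to 1.27 with the palindrome, where the JUN median is -0.54.

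Repeats and base composition moved with these ratios. Over 50% of the bases were soft-masked as repeats in 1667 of 3372 regions at least 2-fold lower (49.4%) and in 366 of 4750 at least 2-fold higher (7.71%). Beyond 3 kb of a start site, the pooled ratio was -0.35 in regions over 50% repeat and 0.21 in the rest. Of the regions with at least 10 reads in that remainder, TGANTCA was in 12.4%, in 16.6% of the higher and in 5.83% of the lower ones. In 5 classes of GC content from low to high the pooled ratio beyond 3 kb was -0.24, -0.16, -0.10, 0.12 and 0.20, and within 1 kb it was -0.30, 0.02, 0.40, 0.62 and 0.88. The part of GC content and repeats in the ratios was not tested.

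Genes of the TGF-β pathway lay mostly above the median of all genes. Among ligands, latent TGF-β binding proteins and receptors, 10 of 18 were kept, with a median of 0.73, 4 at least 2-fold higher (17.0% of all genes) and 1 at least 2-fold lower (9.64% of all genes). Tgfbr1, the type I receptor kinase that phosphorylates SMAD3, had 4 reads in TGF and 20 in siHK1, a log2 ratio of 2.68 (1.24 to 4.83). Its most read region, over the start site at chr4:47352928-47353572, went from 3 to 14. Tgfbr2, its type II partner, had 15 and 13 reads (0.30, -0.90 to 1.46), and the co-receptor Tgfbr3 had 50 and 44 (0.31, -0.31 to 0.92), neither apart from 0. Latent TGF-β binding proteins hold the inactive cytokine in the matrix: Ltbp2 had 20 and 59 reads (2.03, 1.30 to 2.87) and Ltbp4 21 and 51 (1.76, 1.02 to 2.58), while Ltbp1, with 74 in each, and Ltbp3, with 53 and 52, had ratios of 0.49 and 0.47. Acvr2a, an activin receptor, was the exception, with 102 reads in TGF and 27 in siHK1 (-1.40, -2.09 to -0.80).

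The SMAD genes themselves lay nearer to all genes. The 5 kept members had a median of 0.29 and none was 2-fold apart. Smad3 had 98 reads in TGF and 111 in siHK1 over 18 regions (0.67, 0.27 to 1.08), its 2 most read regions lying 11342 and 2850 bp from the start site with 16 and 19 and with 17 and 17 reads. Smad2 had 45 and 39 (0.29, -0.37 to 0.94) and Smad4, the shared partner, 21 and 8 (-0.84, -2.28 to 0.34).

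Feedback inhibitors, which SMAD3 is known to switch on, had a median of 0.69 over 11 kept genes, 10 of them above 0 (56.0% of all genes) and 2 at least 2-fold higher, a share near that of all genes. Pmepa1, which sequesters receptor-activated SMADs, was the member with most reads after the ubiquitin ligase Smurf2: 122 in TGF and 188 in siHK1 (1.12, 0.78 to 1.46). Its 3 most read regions had 28 and 56, 22 and 38, and 11 and 18 reads, each higher in siHK1. Ski and Skil are nuclear co-repressors of SMADs. Ski had 32 and 50 reads (1.13, 0.47 to 1.83) and Skil 45 and 52 (0.70, 0.10 to 1.31). Smad7, which blocks the receptor, had 48 and 58 (0.77, 0.19 to 1.35) and Smad6 101 and 80 (0.16, -0.28 to 0.60). Bambi, a decoy receptor, lay below 0 with 103 and 53 (-0.46, -0.97 to 0.03).

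Known direct SMAD3 targets had a median of 0.92 over 12 kept genes, with 5 at least 2-fold higher and none lower (17.0% and 9.64% of all genes). The median was 0.43 over those with at least 50 reads, and 0.04 with none 2-fold higher over the 4 that reached 20 reads in regions called in both libraries. Thbs1, a matricellular protein that activates latent TGF-β, had 10 reads in TGF and 29 in siHK1 (1.99, 0.95 to 3.23), and 17 of its siHK1 reads came from a promoter region with 0 in TGF. Junb, an AP-1 subunit, had 19 and 30 (1.14, 0.28 to 2.06) and Snai1, a repressor of epithelial genes, 21 and 36 (1.26, 0.46 to 2.12). Cdkn1a, the cell cycle inhibitor p21, had 102 and 58 (-0.31, -0.81 to 0.16) and Id1 15 and 8 (-0.37, -1.86 to 0.92), both with intervals that include 0.

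**Figure D4:**
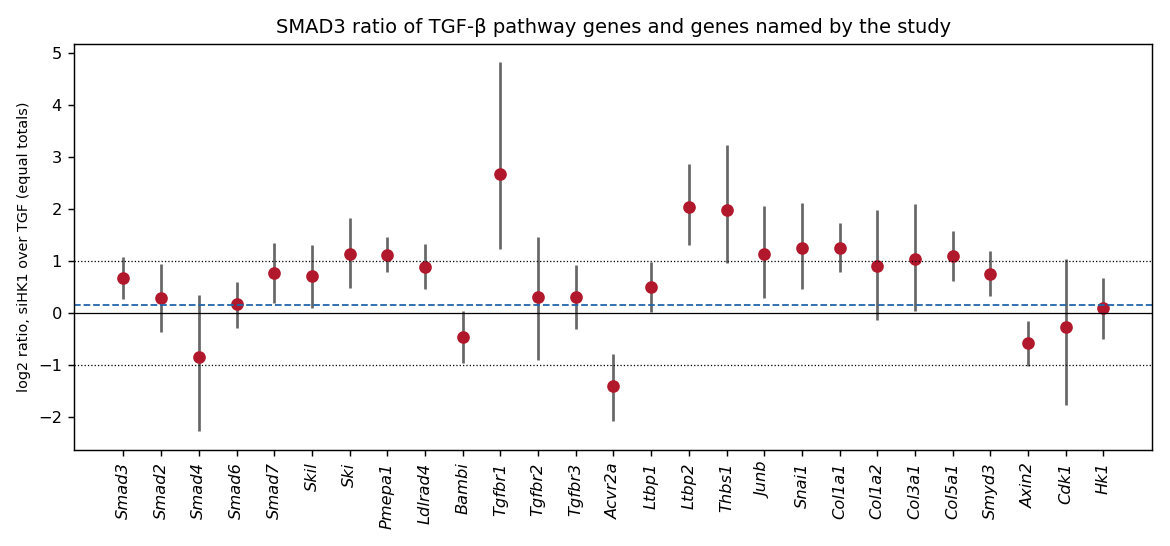
Log2 ratio of siHK1 over TGF SMAD3 reads, scaled to equal totals (y axis), for TGF-β pathway genes and genes named by the study (x axis); points are ratios and bars their exact 95% counting intervals, with the median of all genes (0.15) dashed and 2-fold dotted. Tgfbr1 (2.68), Ltbp2 (2.03) and Thbs1 (1.99) stand highest and Acvr2a (-1.40) lowest.

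Matrix genes had medians above that of all genes. Fibrillar collagens, the load-bearing fibres of scar, had a median of 0.97 over 10 kept genes, 5 at least 2-fold higher and none lower (17.0% and 9.64% of all genes), although only 6 of the 10 lay above 0. Col1a1 had 62 reads in TGF and 105 in siHK1 (1.25, 0.79 to 1.73), of which its most read region, 7057 bp upstream, had 10 and 23. Col3a1 had 15 and 22 (1.03, 0.04 to 2.10), Col1a2 15 and 20 (0.90, -0.13 to 1.98) and Col5a1 62 and 94 (1.09, 0.62 to 1.58). Col24a1 was lowest with 61 and 26 (-0.72, -1.46 to -0.05), and Col11a2, Col5a2 and Col11a1 lay between -0.30 and -0.27. Without the most read region of each gene, the median over the 7 fibrillar collagens that kept 20 reads was 0.13.

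Enzymes that modify and cross-link collagen had a median of 1.10 over 8 kept genes, 5 at least 2-fold higher (17.0% of all genes). Serpinh1, the collagen chaperone HSP47, had 22 and 50 reads (1.66, 0.93 to 2.47), and P4ha1, a prolyl hydroxylase subunit, 31 and 58 (1.39, 0.75 to 2.08). P4ha2, another such subunit, had 214 and 127 (-0.26, -0.59 to 0.07). A single region 12336 bp from the start site held 211 and 117 of these, while the next most read region had 2 and 8. Lox, the cross-linking enzyme, fell short of 20 reads with 2 and 12. Non-fibrillar collagens had a median of 0.86 over 17 genes and matricellular and matrix glycoproteins 0.73 over 17, each with 6 at least 2-fold higher and none lower (17.0% and 9.64% of all genes). The non-fibrillar median was 0.38 over regions beyond 3 kb (16 genes) and 0.23 over regions called in both (6 genes). Col6a2 was the highest of them, with 5 reads in TGF and 27 in siHK1 (2.82, 1.53 to 4.66).

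Contractile and cytoskeletal genes, the machinery of the myofibroblast, had a median of 0.49 and all 17 kept genes above 0 (56.0% of all genes), with 5 at least 2-fold higher (17.0% of all genes) and none of them so without scaling. Myh9, the heavy chain of non-muscle myosin IIA, had 103 reads in TGF and 191 in siHK1 (1.38, 1.03 to 1.75). Palld had 35 and 64 (1.36, 0.75 to 2.004) and Actn1, an actin cross-linker, 36 and 64 (1.32, 0.71 to 1.96). Acta2, which encodes α-smooth muscle actin, the usual marker of the myofibroblast, had too few reads to be kept: 5 in TGF and 12 in siHK1, all over its start site (1.68, 0.15 to 3.62). Postn, another activation marker, had 2 and 3.

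These lists were also read over regions away from start sites. Over regions beyond 3 kb the pooled ratio of all genes was -0.09, whereas it was 0.75 for fibrillar collagens (271 and 323 reads), 0.69 for matricellular proteins (529 and 604), 0.73 for contractile genes (455 and 535), 0.48 for TGF-β ligands and receptors (325 and 321) and 0.43 for feedback inhibitors (766 and 731), each over every listed gene with such a region. It was 0.33 for the known SMAD3 targets (322 and 287). As medians over the genes with 20 reads there, feedback inhibitors had 0.27 (10 genes) and ligands and receptors 0.69 (8 genes). Without the most read region of each gene, the median of ligands and receptors was 0.24 (6 genes). Over regions called in both libraries few members reached 20 reads: the median was 1.06 over 2 fibrillar collagens, 0.73 over 5 matricellular genes, 0.56 over 4 contractile genes, 1.08 over 4 ligands and receptors and 0.27 over 5 feedback inhibitors, against 0.09 over 1957 genes of all kinds. The first 5 of these lists had gene medians between -0.18 and 0.25 for JUN and H3K9lc and between -0.03 and 0.47 for NFATC2. Without scaling every log2 ratio is lower by 0.49: the median of all genes is then -0.35, that of fibrillar collagens 0.47, that of feedback inhibitors 0.19, that of contractile genes 0.00 and that of SMAD genes -0.20. Counts past 2-fold moved more than medians. Fibrillar collagens at least 2-fold higher were 5 at first, 2 with TMM, 2 with the deposited log2 values and 1 with no scaling, where 1 was lower. Collagen-modifying enzymes were 5, 3, 2 and 1 in the same order, and feedback inhibitors 2, 0, 0 and 0.

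**Figure D5:**
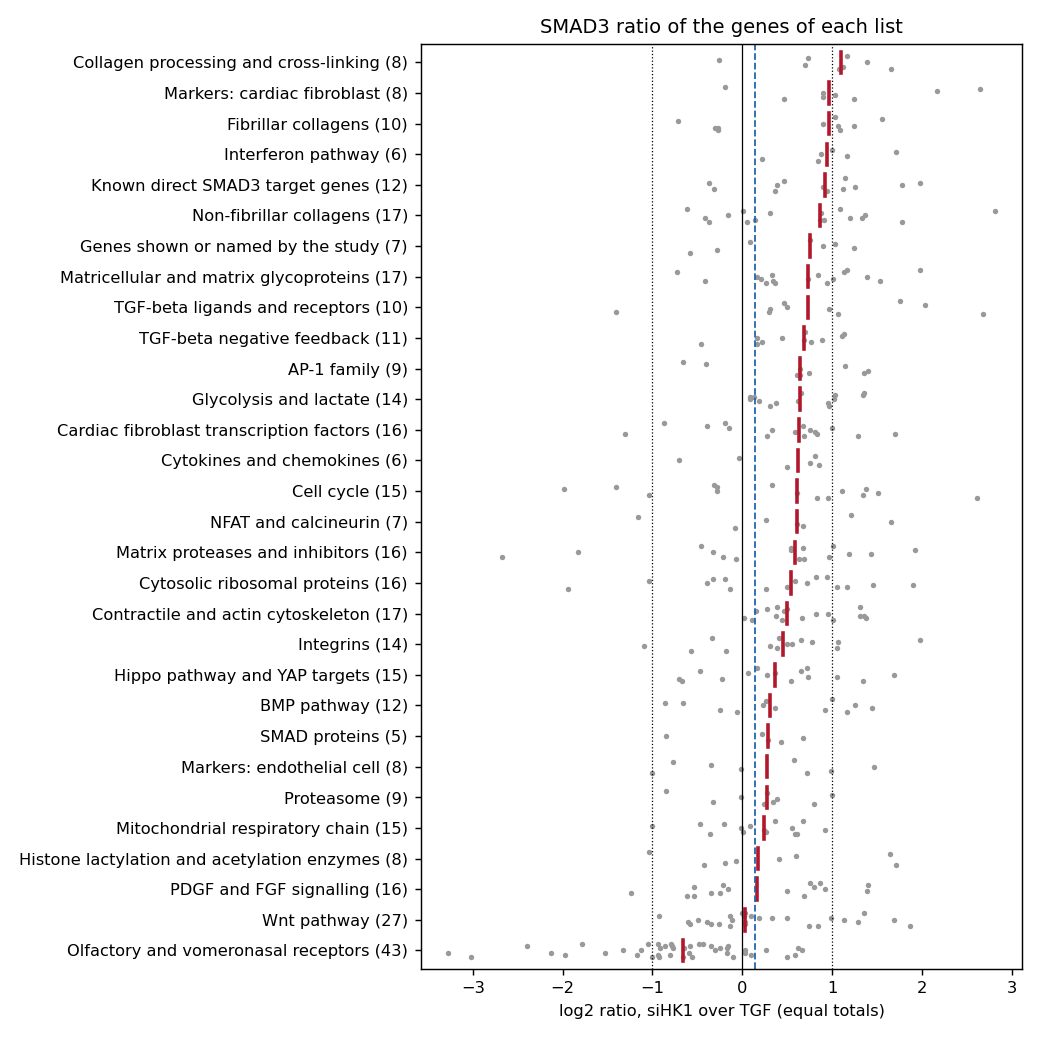
Log2 ratio of siHK1 over TGF SMAD3 reads (x axis) for the kept members of each gene list with at least 5 of them other than the Zfp genes (rows, number in brackets); grey points are genes, red bars list medians, the dashed line the median of all genes (0.15) and the dotted lines 2-fold. Collagen processing (1.10), cardiac fibroblast markers (0.97) and fibrillar collagens (0.97) lie at the top and olfactory and vomeronasal receptors (-0.66) at the bottom.

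AP-1 genes had a pooled ratio of 1.12 within 3 kb of a start site and of 0.01 beyond it. Their median was 0.64 over 9, with Fosb at 24 and 44 reads (1.36, 0.62 to 2.15) and Fosl2 at 11 and 21 (1.40, 0.31 to 2.63), whereas Maf had 148 and 79 (-0.41, -0.82 to -0.01). Glycolysis and lactate genes had a median of 0.64 with all 14 above 0 (56.0% of all genes), although Hk1 and Gpi1 turned negative with TMM, with the deposited log2 values and with no scaling. The median was 0.34 over 18 genes with at least 10 reads, 2 of them at least 2-fold lower, and 0.33 over 7 genes beyond 3 kb of a start site. Slc2a1, the glucose transporter GLUT1, had 36 and 66 reads (1.36, 0.76 to 1.998), Hk2 24 and 35 (1.03, 0.25 to 1.85), and Hk1, the gene targeted by the siRNA, 61 and 46 (0.09, -0.50 to 0.66). Integrins had a median of 0.45 over 14, with 10 above 0 (56.0% of all genes), 3 at least 2-fold higher and 1 lower (17.0% and 9.64% of all genes), and 1 higher with TMM. The highest was Itga5, the fibronectin receptor chain, with 15 and 43 (1.98, 1.14 to 2.97). Wnt pathway genes lay at 0.03 over 27.

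Transcription factors of cardiac fibroblasts were divided. Their median was 0.64 over 16 kept genes, 2 at least 2-fold higher, a smaller share than among all genes, and 1 lower. Over regions called in both libraries the median of 9 of them turned to -0.26. Runx2 had 78 and 99 reads (0.84, 0.40 to 1.29) and Foxp1 177 and 203 (0.69, 0.39 to 0.99). Osr1 had 192 and 74 (-0.87, -1.29 to -0.49) and Gata4 29 and 8 (-1.30, -2.70 to -0.20). Cell cycle genes had a median of 0.62 over 15, with 5 at least 2-fold higher and 3 lower (17.0% and 9.64% of all genes), and a median of -0.28 over 9 genes beyond 3 kb of a start site. Members lay far apart, with Ccnd1 at 4 and 19 (2.61, 1.15 to 4.76), Cdkn2a at 50 and 17 (-1.03, -1.95 to -0.24) and Mcm5 at 19 and 3 (-1.98, -4.57 to -0.40).

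Axin2 and Smyd3 are also among the genes named by the study. Smyd3, a methyltransferase gene, had 85 reads in TGF and 102 in siHK1 (0.76, 0.33 to 1.19). Axin2, a brake on Wnt signalling, had 148 and 70 (-0.58, -1.02 to -0.17). Of these, 133 and 65 came from a single distal region, 68025 bp from the start site, whose central 200 bases are shown because it holds most of the reads of the gene. The next most read Axin2 regions had 8 and 0 and 3 and 3 reads, so the ratio of the gene is mostly that of the distal region. Whether the sequence of that region also occurs elsewhere in the genome was not checked. The most read Col1a1 region, which holds 10 and 23 of the 62 and 105 reads of that gene, is shown beside it as a region with a ratio of the opposite sign.
Axin2, distal intergenic, chr11:109011808-109012007: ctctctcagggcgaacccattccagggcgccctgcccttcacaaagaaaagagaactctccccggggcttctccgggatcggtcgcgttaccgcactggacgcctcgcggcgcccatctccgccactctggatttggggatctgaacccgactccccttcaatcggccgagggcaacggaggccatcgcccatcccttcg
Col1a1, distal intergenic, chr11:94928852-94929051: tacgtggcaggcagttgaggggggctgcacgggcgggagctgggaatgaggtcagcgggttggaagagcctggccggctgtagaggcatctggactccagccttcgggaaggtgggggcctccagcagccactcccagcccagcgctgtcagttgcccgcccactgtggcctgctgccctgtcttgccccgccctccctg
Neither stretch holds CAGAC, GTCTAGAC or TGANTCA, but the Axin2 stretch holds GGCGC. Cdk1 had 14 and 8 reads (-0.28, -1.77 to 1.04), and Irf7 had 8 and 2, below the limit. Slc40a1, also shown by the study, had no listed SMAD3 region.

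The genes farthest from 0 were named by the bounds of their counting intervals. On the lower side stood Ube3a, with 23 reads in TGF and 0 in siHK1, then Klra1 (31 and 1), Bcl2a1a (44 and 3), Penk (26 and 1), 1700010N08Rik (53 and 5), AA536875 (40 and 3), Spink5 (25 and 1), Alcam (32 and 2), Gm16223 (68 and 8) and Slc38a9 (31 and 2). Against counts this low the ratio is loose: Klra1 had a log2 ratio of -3.90 (-9.81 to -1.87). Upper bounds of the 10 log2 ratios ran from -2.03 for Ube3a to -1.48 for Slc38a9. Ube3a encodes a ubiquitin ligase, Penk an opioid precursor and Alcam an adhesion molecule. The most read regions of the 10 genes lay between 2803 bp (1700010N08Rik) and 239443 bp (Ube3a) from the start site.

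On the higher side stood Poc1b (2 reads in TGF and 32 in siHK1), Ptp4a1 (2 and 21), Ugcg (4 and 27), Appbp2os (2 and 19), Ankrd27 (4 and 25), Slc43a2 (2 and 18), Adssl1 (2 and 18), Cdcp1 (5 and 28), Prkar2b (6 and 31) and Mfap5 (7 and 33). Poc1b had a log2 ratio of 4.195 (2.52 to 7.60). Lower bounds of the 10 log2 ratios ran from 2.52 for Poc1b to 1.53 for Mfap5. Mfap5 encodes a microfibril glycoprotein of the fibroblast matrix, Ugcg the enzyme that makes glucosylceramide and Ptp4a1 a phosphatase. The most read regions of the 10 genes lay between 0 bp (Ptp4a1, Appbp2os and Ankrd27) and 18709 bp (Ugcg) from the start site, with those of Cdcp1 and Prkar2b at 9588 and 5343 bp.

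The cell type on the labels cannot be checked by expression in these tables. SMAD3 regions were listed at 11 of 12 cardiac fibroblast marker genes, 8 of which were kept (median 0.97, 236 reads in TGF and 323 in siHK1), among them Gsn with 10 and 33 (2.17, 1.16 to 3.40) and Tcf21 with 55 and 34 (-0.19, -0.86 to 0.44). Of 12 cardiomyocyte markers 7 had a listed region and 3 were kept, with 244 and 137 reads and a median of -0.24, and Myh7, Tnni3, Actc1, Myl2 and Myl7 had none. Kept endothelial markers (8) had 251 and 222 reads and a median of 0.28, macrophage markers (3) 65 and 52, and smooth muscle or pericyte markers (2) 47 and 25. For NFATC2 the cardiac fibroblast markers had a median of 0.90 over 8 genes. The part of other cell types in the ratios was not tested. At the other extreme from the matrix genes, olfactory and vomeronasal receptor genes, which are silent in most tissues, had a median of -0.66 over 43 kept genes, 11 at least 2-fold lower and none higher (9.64% and 17.0% of all genes). The NFATC2 median was also low, at -0.47 over 47 receptor genes against 0.08 over all genes. Of the SMAD3 reads assigned to these receptor genes, most were assigned to Vmn1r2 (4471 and 2109, -0.59) and Olfr161 (2738 and 1240, -0.65). The most read regions of these 2 genes lay 80870 and 354759 bp from the start site. The 102 kept zinc finger genes named Zfp had a median of 0.13, with 14 at least 2-fold higher and 12 lower, shares near those of all genes.

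Gene ratios for SMAD3 ranked differently from those of the other antibodies. Across genes kept for both, Spearman's rho was -0.06 with JUN (7350 genes), 0.21 with NFATC2 (5702 genes) and 0.02 with H3K9lc (5261 genes). These are descriptions across genes, which are not independent replicates.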

How the data were processed

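CUT&Tag libraries of SMAD3 in TGF and siHK1 cells were analysed, with the matching JUN, NFATC2 and H3K9lc pairs for comparison. The study's methods name Bowtie2, MACS2, GRCm39 and spike-in DNA, while the submitters' processing notes name BWA 0.7.12 and mm10. All 26962 transcripts of the table that were found in GENCODE vM21 had its GRCm38 coordinates, so GRCm38 is used. The deposited count of each region is the authors' raw read number per library, with a 0 or 1 mark for a called peak. The log2 values per library that the authors deposited are a straight line in log2(count + 0.5) and served only as an alternative. Columns with the authors' fold changes, standard errors, p-values and calls were not used, and 20 per-library columns were left aside.

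Counts were summed per symbol and scaled to equal totals, and log2((siHK1 + 0.5) / (TGF + 0.5)) was taken, with exact (Clopper-Pearson) 95% intervals of the ratio of counts. Spike-in counts were not used here, so a change common to all regions cannot be seen. Genes were named by these rules: the 10 with the lowest upper and the 10 with the highest lower interval bound, the 4 members of each of 37 lists with most reads, genes named by the study, and Smad3, Smad7, Skil and Ccn2. No SMAD3 region was listed under the symbol Ccn2. Some genes that the rules name are not reported here. Other list members were chosen after their values were seen. The members and lists were chosen with earlier results of these data known, among them the promoter share of SMAD3 regions, and are not independent support. Motifs were read from the RefSeq GRCm38.p6 genome, in which lower case marks repeats. Scripts were checked on simulated data. Python 3.11.15, pandas 2.3.3, scipy 1.17.1 and edgeR 4.0.16 (TMM factors as a scaling only) were used. Alternatives in scaling, read limits, pseudocounts, region sets and thresholds are given in the closing section.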

Additional observations from a re-analysis of the deposited data

How the results depend on the processing

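No paired analysis was possible because 1 SMAD3 library stood for a condition, and so no replicate could be left out either. The main values were 777 SMAD3 genes at least 2-fold lower in siHK1, 1372 SMAD3 genes at least 2-fold higher in siHK1 and a median of 0.15. With no scaling they were 1891, 461 and -0.35, and with the deposited log2 values 1316, 864 and -0.10. TMM scaling gave 1008, 1040 and a median of 0.0124, and equal totals over regions called in both libraries gave a median of 0.23. Limits of 10 and 50 reads gave 1494 lower and 2514 higher (median 0.19) and 270 and 371 (0.0219), and a limit on the scaled mean gave a median of 0.18. Regions within 3 kb of a start site gave 68, 741 and 0.75, regions called in both 41, 201 and 0.0916, and genes without their most read region 548 lower, 597 higher and 0.034. A 1.5-fold threshold gave 1693 and 2572. Chosen after seeing the data, equal totals without the 100 regions with most reads gave a median of 0.0822, and regions beyond 3 kb gave 753 lower, 703 higher and -0.0949, so that lower genes outnumbered higher ones.

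The promoter median of 0.84 was 0.78 with at least 20 reads, 0.34 with no scaling, 0.65 with the deposited log2 values, 0.49 in regions called in both (with at least 10 reads), 0.98 within 1 kb and 0.77 without the 100 regions in the totals. The distal median of -0.29 was -0.35 with no minimum, -0.79 with no scaling, -0.44 with the deposited log2 values, -0.14 in regions called in both and -0.36 without the 100 regions. Both kept their direction in each of these. Among 2044 alternative values of the 155 genes named by the rules above, 96 had the opposite sign, 30 of them with no scaling. The list members chosen after their values were seen, such as Tgfbr1 and Tgfbr2, are not in this count. Eln, at least 2-fold higher at first (1.14), turned to -0.68 within 3 kb of a start site; the cause was not tested. Depth limits the gene values: 8062 of 16630 genes reached 20 reads.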

Other observations

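Some gene groups are not described above. Matrix proteases and their inhibitors had a median of 0.59 over 16 kept genes, 4 at least 2-fold higher and 2 lower (17.0% and 9.64% of all genes). Mmp19 had 6 reads in TGF and 17 in siHK1 (1.92, 0.59 to 3.63) and Adam19 19 and 37 (1.44, 0.62 to 2.34), whereas Adam17, the sheddase of TNF, had 22 and 2 (-2.68, -6.10 to -0.94). BMP pathway genes had a median of 0.31 over 12, with Fstl1 at 28 and 48 (1.26, 0.57 to 1.9996) and Bmp7, a ligand known to oppose TGF-β, at 74 and 33 (-0.66, -1.31 to -0.06). Genes of the interferon pathway had a median of 0.94 over 6, all of them above 0 and 3 at least 2-fold higher, where 56.0% and 17.0% of all genes were. With at least 10 reads the median was 0.53 over 10 genes, 3 at least 2-fold higher and 2 lower, and with no scaling 1 of the 6 was at least 2-fold higher.

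Among housekeeping groups the median was 0.24 over 15 respiratory chain genes, 0.28 over 9 proteasome genes and 0.54 over 16 cytosolic ribosomal protein genes, against 0.15 over all genes. The ribosomal median turned to -0.36 over regions beyond 3 kb (8 genes), -0.29 with at least 50 reads (4 genes) and -0.54 without the most read region of each gene (6 genes). Among the last, Rpl10l had 51 reads in TGF and 9 in siHK1 (-1.94, -3.22 to -0.97) and Rps19 8 and 22 (1.90, 0.73 to 3.33). The genes with most reads were Mir101c (51773 and 24846), Lrrc4c (39202 and 23532) and Col19a1 (35183 and 36803), against a median of 43 reads over kept genes. Col19a1 lay outside the collagen lists and had a log2 ratio of 0.56 (0.54 to 0.58). Its reads came from 8 regions, with 0.0% of them within 1 kb of a start site. Whether read numbers this far above other genes reflect SMAD3 binding was not tested.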
